A study of Mus musculus with 6 samples.

Results

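The insulin-like growth factor (IGF) axis and a group of imprinted growth genes were read in the right atrium (RA) of mice at postnatal day 21 (P21), with and without volume overload (VO). The 10 genes were taken by symbol, from a list drawn up with earlier results of these data known: the ligands Igf1 and Igf2, the receptors Igf1r and Igf2r, the binding protein Igfbp5, and the imprinted growth genes Dlk1, Peg3, Plagl1, Cdkn1c and Mest (Igf2 and Igf2r are imprinted as well). Each symbol matched 1 of the 54093 genes listed, and 9 of the 10 passed the filter on low values, a mean of at least 1 FPKM over the 6 libraries, that 12627 genes passed in all. FPKM is the number of fragments per kilobase of gene, scaled to the library size, so levels in FPKM can be compared between genes. Dlk1 did not pass, and its values are described without a test.

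All mice were wild-type (WT) C57BL/6, and the study's methods describe pups of either sex. VO was made at P7 by puncturing the abdominal aorta into the inferior vena cava, which makes an aortocaval fistula, and control pups had sham surgery at the same age. RNA of the RA free wall at P21 was sequenced in 3 sham and 3 VO libraries, named here sham 1 to sham 3 and VO 1 to VO 3. The sources used here do not say whether a library is 1 animal or a pool, so p-values measure the spread between these libraries. The fistula raises the return of blood to the heart as a whole.

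As background, Igf1 and Igf2 are secreted growth factors that signal through the receptor tyrosine kinase Igf1r, while Igf2r binds Igf2 and carries it to lysosomes, which lowers the amount of ligand. The binding proteins hold the ligands outside cells, and proteases that cut them release the ligands again. Imprinted genes are expressed mainly from the copy of a single parent, and many of them act on growth before and shortly after birth, when Igf2, H19, Dlk1, Mest and others are high in many tissues before they decline. Igf2, Dlk1, Peg3, Plagl1 and Mest are expressed from the paternal copy, and Igf2r and Cdkn1c from the maternal copy in mice.

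Promoter sequence is shown for the 5 genes that later proved to have a like order of levels over the libraries, and for Igf1, which did not share that order. RefSeq windows for GRCm38.p6 were matched by symbol for 9 of the 10 genes, with 14 windows in all, since Igf2 had 4 starts and Mest 3. Each run holds the 250 bases before a transcription start, written 5′ to 3′ on the strand of the gene, and capitals mark every match, on either strand, to GGGGCCCC, a core described for Plagl1 binding, or to GGGCGG, the GC box of SP1. TATAAA was searched as well and had no match in the 14 windows. The motifs did not overlap in any run printed.
Igf2 (chr7:142658805-142659054, minus strand, before an internal start): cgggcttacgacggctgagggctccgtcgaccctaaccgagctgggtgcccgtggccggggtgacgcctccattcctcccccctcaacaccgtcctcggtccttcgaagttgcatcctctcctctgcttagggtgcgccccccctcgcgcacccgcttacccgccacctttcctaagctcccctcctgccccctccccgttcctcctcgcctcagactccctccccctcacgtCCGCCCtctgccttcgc
Igf1r (chr7:67952007-67952256, plus strand): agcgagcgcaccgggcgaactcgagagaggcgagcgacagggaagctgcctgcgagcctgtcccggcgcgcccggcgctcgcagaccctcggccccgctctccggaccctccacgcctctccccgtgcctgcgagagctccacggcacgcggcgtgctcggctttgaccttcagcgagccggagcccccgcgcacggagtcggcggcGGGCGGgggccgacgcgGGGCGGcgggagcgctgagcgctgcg
Igf2r (chr17:12769707-12769956, minus strand): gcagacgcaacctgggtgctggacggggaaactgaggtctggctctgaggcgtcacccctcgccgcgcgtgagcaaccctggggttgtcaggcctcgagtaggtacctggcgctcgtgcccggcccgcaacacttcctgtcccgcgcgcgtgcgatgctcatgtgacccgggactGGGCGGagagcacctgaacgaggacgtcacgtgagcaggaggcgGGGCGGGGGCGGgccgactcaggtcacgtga
Peg3 (chr7:6730420-6730669, minus strand): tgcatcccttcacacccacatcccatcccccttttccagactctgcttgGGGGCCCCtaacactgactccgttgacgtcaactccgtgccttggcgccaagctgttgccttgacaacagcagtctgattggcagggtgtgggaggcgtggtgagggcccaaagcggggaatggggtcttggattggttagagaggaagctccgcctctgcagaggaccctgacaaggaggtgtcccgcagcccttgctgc
Plagl1 (chr10:13090582-13090831, plus strand, before an internal start): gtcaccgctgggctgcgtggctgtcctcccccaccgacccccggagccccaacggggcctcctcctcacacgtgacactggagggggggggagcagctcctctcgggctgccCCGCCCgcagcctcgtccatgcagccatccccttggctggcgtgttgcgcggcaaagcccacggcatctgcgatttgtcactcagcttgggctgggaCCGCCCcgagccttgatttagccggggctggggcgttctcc
Igf1 (chr10:87860861-87861110, plus strand, before an internal start): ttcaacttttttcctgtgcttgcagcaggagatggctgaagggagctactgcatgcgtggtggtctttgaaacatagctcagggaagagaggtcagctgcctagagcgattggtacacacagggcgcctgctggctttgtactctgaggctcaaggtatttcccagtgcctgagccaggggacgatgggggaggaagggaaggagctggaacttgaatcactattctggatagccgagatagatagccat

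Of all 32851 windows of this length, 0.889% held GGGGCCCC, 32.7% held GGGCGG and 12.4% held TATAAA. Peg3 was the only gene of the 9 with GGGGCCCC, which began at base 50 of its run. The run of Peg3 also spans the start at 6730578 of Usp29, the neighbouring imprinted gene on the other strand. GGGCGG had 3 matches in Igf2r, 2 in Igf1r, 2 in Plagl1 and 1 in the Igf2 run shown, and none in Igf1 or Peg3. The runs also differed in CpG dinucleotides, the bases at which imprinted and housekeeping promoters are methylated or kept free of methylation. Igf1r had 42, Igf2r 27, the Igf2 run 22 and Plagl1 19, against 8 in Peg3, 5 in Igf1 and a median of 6 over all windows. The Igf2 windows that are not printed held 6, 10 and 1 CpG, with 2, 0 and 0 matches to GGGCGG. The Igf2 run shown was thus the richest in CpG of the Igf2 windows. Of the other genes, whose windows are not printed, Mest held 7, 14 and 14 CpG, with 1 match to GGGCGG in each window. Igfbp5 held 10 CpG and Dlk1 8, without a match. A match of letters is a description of the window and not evidence of binding.

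The libraries held 15963082 to 17237903 fragments on genes. By the library sizes that the authors divided by, 1 FPKM was worth 15.6 to 18.1 fragments for each kilobase of a gene. Several libraries stood apart. VO 3 held a summed level of 392 FPKM over 5 adipocyte markers against 3.50 to 7.72 in the others, with Ucp1, the uncoupling protein of brown fat, at 254 FPKM there and at 0 elsewhere. VO 1 held 414 FPKM over 8 macrophage markers against 143 to 205, and 16.7 FPKM over 6 markers of dividing cells against 3.08 to 4.29. Sham 1 was low for long genes: relative to each gene's mean, the median log2 level of tested genes of at least 6442.5 bases minus that of genes of up to 2316.5 bases was -0.37 there, against 0.26 in VO 1 and 0.0006 to 0.06 in the rest. The Y-linked Ddx3y was at 27.3 and 28.3 FPKM in sham 2 and VO 3 and at 0 to 0.0106 FPKM in the other libraries, so each group held 1 male library. The atrial markers Myl7, Myl4, Nppa and Sln were at 378 to 8501 FPKM in every library, and the ventricular transcription factor Irx4 was at 0 to 0.26 FPKM. The ventricular myosin light chains were uneven: Myl2 was at 60.4, 2.02 and 56.0 FPKM in sham and 6.95, 1.54 and 20.6 FPKM in VO, and Myl3 at 83.8 to 246 FPKM, so sham 1, sham 3 and VO 3 held more Myl2 than the rest. Over 8 atrial cardiomyocyte markers the summed level was 20077, 14373 and 13986 FPKM in the sham and 6618, 13369 and 9890 FPKM in the VO libraries. In such bulk samples, fewer cells of a type and less RNA per cell cannot be told apart.

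By level, the 10 genes ran from Igfbp5, with a mean of 138 FPKM over the 6 libraries, down to Dlk1, with 0.0754 FPKM. Between them stood Igf2r with 24.9, Plagl1 with 23.0, Peg3 with 18.4, Mest with 16.1, Cdkn1c with 12.4, Igf1 with 7.85, Igf2 with 5.83 and Igf1r with 3.91 FPKM. Neighbours in this order overlapped in their ranges over the libraries, except that Igfbp5 was above Igf2r and Igf1r above Dlk1 in every library. Igfbp5 was thus higher than 98.0% of the tested genes, and Igf1r higher than 35.4% of them. The clearing receptor Igf2r was read at a higher level than the signalling receptor Igf1r, at 19.6 to 31.1 FPKM against 2.97 to 4.69 FPKM.

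VO was then compared with sham for each gene in a two-sided limma fit to log2(FPKM + 0.1), and p-values were adjusted by Benjamini-Hochberg for the 12627 genes. An adjusted p under 0.05 was found for none of the 9 genes tested here and for 1 gene among the 12627, which is 0.00792%: Nppb, the natriuretic peptide B, named here after its values were seen, fell from 566 ± 34.9 to 145 ± 23.2 FPKM (mean ± SD, n = 3 per group, adjusted p = 0.0419). That call was lost with quantile normalization, robust variance, a replicate block, sex as a covariate, removal of the level and length trend, or any single library left out. At an unadjusted p under 0.05, 1 of the 9 was higher in VO, Igf1, and none was lower, where 3.89% of all tested genes were higher and 8.08% lower (491 and 1020 genes, a balance that turned to 1080 and 489 with TPM). No gene of the 9 had VO values that were all above or all below the sham values, while 21.2% of the tested genes had. All 9 log2 fold changes (VO minus sham) were above 0, from 0.15 to 0.68 with a median of 0.23, where 48.5% of all tested genes were above 0 and their median was -0.01. The 9 are not independent readings of the groups, because several of them had a like order over the same 6 libraries.

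**Figure D1:**
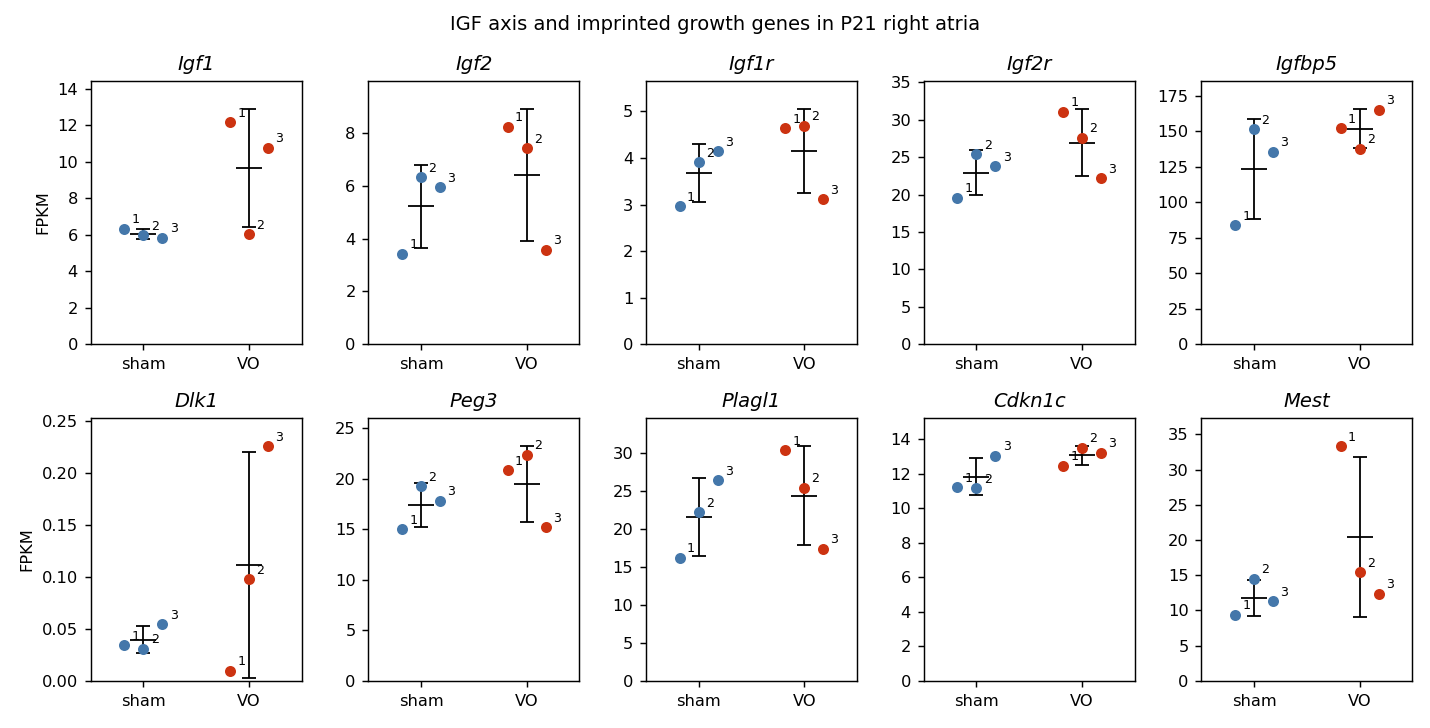
FPKM of the 10 genes (vertical axes, one scale per gene, each starting at 0) in the 3 sham libraries (blue) and the 3 VO libraries (red), numbered by replicate, with the group mean as a long bar and the SD as whiskers. Groups overlapped for every gene. Igf1 ran from 5.84 to 6.33 FPKM in the sham libraries and was at 12.2 and 10.8 FPKM in VO 1 and VO 3, but at 6.04 FPKM in VO 2.

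Of the ligands, Igf1 (ENSMUSG00000020053, chr10:87858265-87937042, plus strand), the main postnatal growth factor of the axis, was at 6.33, 5.97 and 5.84 FPKM in the sham libraries and at 12.2, 6.04 and 10.8 FPKM in the VO libraries. The sham values were close to each other, VO 1 and VO 3 were above them all, and VO 2 lay among them. The means were 6.05 ± 0.253 and 9.66 ± 3.22 FPKM (SD, n = 3), a log2 fold change of 0.61 with an SE of 0.25, a 95% interval of 0.02 to 1.20 and an adjusted p of 0.414. The values rested on 942 to 2187 fragments per library, so counting error was small beside the spread within the VO group. Without VO 1 the log2 fold change was 0.41, without VO 3 it was 0.50, and without both, with VO 2 as the lone VO library, it was -0.0009. Without VO 2 it was 0.91, with an adjusted p of 0.192. With any other single library left out, sham libraries included, the unadjusted p of Igf1 was no longer under 0.05.

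The level of Igf1 stood beside that of other cell type markers in the same libraries. VO 1 and VO 3, the libraries high in Igf1, were the highest in summed fibroblast markers, with 1171 and 1035 FPKM against 749 to 793 FPKM in the other libraries, VO 2 included. Of the 8 fibroblast markers 7 had a log2 fold change above 0, with a median of 0.16, and the collagen Col3a1 was at 475 and 395 FPKM in VO 1 and VO 3 and at 208 to 275 FPKM in the rest. Col1a1, Col1a2 and Ddr2 were likewise highest in VO 1 and VO 3. The other fibroblast markers did not follow this order. Pdgfra, a receptor that marks fibroblasts, was at 13.9 to 17.5 FPKM over all 6 libraries. Dpt was highest in sham 1, at 204 FPKM, and Tcf21 was lowest in VO 3, at 15.0 FPKM. Lum was at 152 FPKM in sham 1 and at 143 FPKM in VO 3. For the 8 macrophage markers, all with log2 fold changes above 0 and a median of 0.64, the sum was 414 FPKM in VO 1, 193 FPKM in VO 3 and 205 FPKM in sham 1, where C1qa and C1qb were high. For the other 6 of the 8, VO 1 and VO 3 were the 2 highest libraries, as for Igf1. Cd68 was at 17.8 and 10.6 FPKM there against 6.37 to 7.47 FPKM in the rest. Mrc1 was at 16.6 and 10.8 FPKM against 6.85 to 8.004 FPKM. For Csf1r and Cx3cr1, VO 3 was barely above VO 2, and VO 1 alone stood apart. Cx3cr1 was at 12.3 FPKM in VO 1, 4.68 FPKM in VO 3 and 4.62 FPKM in VO 2. Unlike for Igf1, VO 2 was above every sham library for Cd68, Csf1r, Adgre1 and Cx3cr1. VO 1 and VO 3 were also lowest in atrial cardiomyocyte markers, all 8 of which had log2 fold changes below 0, with a median of -0.51. VO 3 was also the library with adipocyte markers, at a sum of 392 FPKM against 3.50 to 7.72 FPKM in the others. The part of these cell types in the level of Igf1 was not tested.

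**Figure D2:**
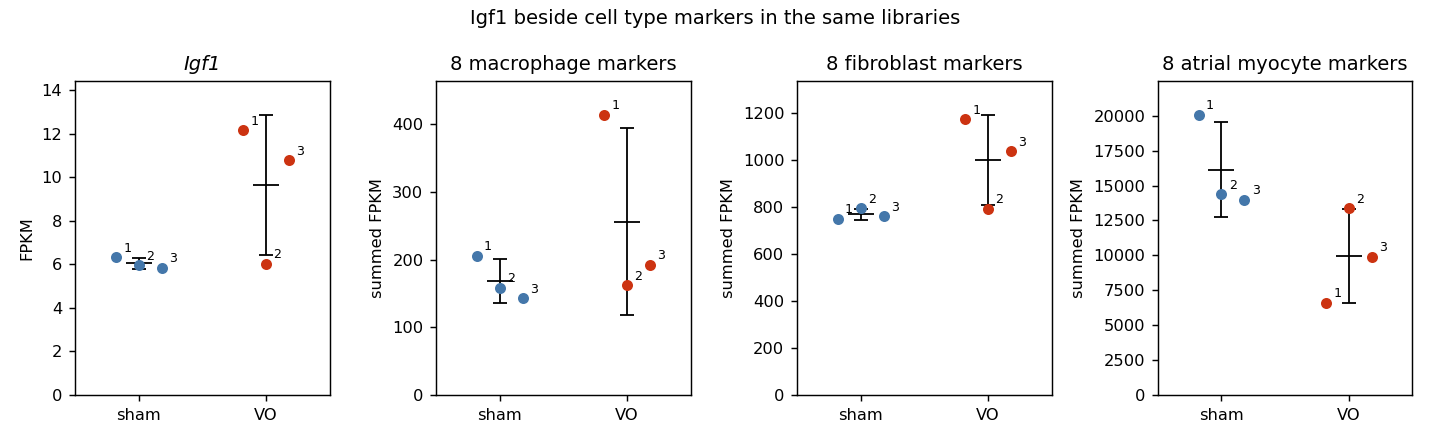
FPKM of Igf1 and the summed FPKM of 8 macrophage, 8 fibroblast and 8 atrial cardiomyocyte (myocyte) markers in the 3 sham (blue) and 3 VO (red) libraries, numbered by replicate, with the mean and SD of each group, on axes that start at 0. VO 1 and VO 3 were highest in Igf1 and in the sum of fibroblast markers (1171 and 1035 FPKM), and VO 1 was highest in the sum of macrophage markers (414 FPKM).

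Igf2 (ENSMUSG00000048583, chr7:142650766-142666816, minus strand), the fetal growth factor, was at 3.44, 6.34 and 5.94 FPKM in sham and 8.24, 7.44 and 3.58 FPKM in VO. VO 1 and VO 2 were above every sham library, and VO 3 was close to sham 1, the lowest. The means were 5.24 ± 1.57 and 6.42 ± 2.49 FPKM, with a log2 fold change of 0.25 (SE 0.36, 95% interval -0.60 to 1.10, adjusted p = 0.749). Without VO 3 the log2 fold change was 0.62, and without sham 1 it was -0.02. Leaving out VO 1 or VO 2 gave 0.03 or 0.10, and leaving out sham 2 gave 0.41. The interval is wide, from below 0 to above 1 on the log2 scale. Genes that overlap Igf2 were low, with the antisense Igf2os at 0.217 to 0.517 FPKM. Gm49394, a protein-coding gene on the strand of Igf2, shares 16048 bases with it and was at 0 FPKM in every library. How fragments that lie on both genes were counted is not stated. Whether the level of Igf2 was read too low for this reason was not tested.

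Of the receptors, Igf1r (ENSMUSG00000005533, chr7:67952827-68233668, plus strand), which passes the signal of both ligands, was at 2.97, 3.91 and 4.14 FPKM in sham and 4.64, 4.69 and 3.12 FPKM in VO. Again VO 1 and VO 2 were highest while VO 3 and sham 1 were lowest. Its log2 fold change was 0.16 (SE 0.20, 95% interval -0.32 to 0.64, adjusted p = 0.716), from 3.67 ± 0.620 to 4.15 ± 0.896 FPKM. It was 0.02 without sham 1, 0.07 without VO 1, 0.06 without VO 2, 0.25 without sham 3 and 0.35 without VO 3.

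Igf2r (ENSMUSG00000023830, chr17:12682406-12769664, minus strand), the receptor that removes Igf2, was at 19.6, 25.4 and 23.8 FPKM in sham and 31.1, 27.6 and 22.2 FPKM in VO. The libraries stood in the same order as for Igf2, from sham 1 and VO 3 up to VO 2 and VO 1. The log2 fold change was 0.23 (SE 0.16, 95% interval -0.15 to 0.61, adjusted p = 0.530), from 22.9 ± 2.999 to 27.0 ± 4.46 FPKM. Leaving out sham 1 or VO 1 gave 0.12, and leaving out VO 3 gave 0.36. Its antisense partner Airn, the long RNA that silences the paternal copy of Igf2r in many tissues, shares 28354 bases with the gene and was at 3.65, 4.21 and 4.85 FPKM in sham and 7.22, 5.88 and 3.38 FPKM in VO. Counting by strand is not stated for these files, so reads of Igf2r and Airn within the shared bases cannot be told apart.

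Igfbp5 (ENSMUSG00000026185, chr1:72857932-72874884, minus strand), a binding protein that is held in the extracellular matrix, was at 83.8, 151 and 135 FPKM in sham and 152, 138 and 165 FPKM in VO. Sham 1 was the low value, and the other 5 libraries lay within 135 to 165 FPKM. The means were 124 ± 35.3 and 152 ± 13.7 FPKM, with a log2 fold change of 0.34 (SE 0.23, 95% interval -0.20 to 0.87, adjusted p = 0.516), which was 0.08 without sham 1 and 0.51 without sham 2.

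Among the imprinted growth genes, Mest (ENSMUSG00000051855, chr6:30723547-30748465, plus strand), a hydrolase-like protein whose paternal copy promotes growth, had the largest log2 fold change of the 9, at 0.68 (SE 0.36, 95% interval -0.18 to 1.53, adjusted p = 0.451). Its levels were 9.42, 14.5 and 11.3 FPKM in sham and 33.4, 15.5 and 12.4 FPKM in VO. VO 1 was above every other library, at 3.54 times the lowest, and without it the log2 fold change was 0.25. Without VO 3 it was 0.97. VO 1 was also the library highest in markers of dividing cells and of macrophages, and the part of these in the level of Mest was not tested. Copg2, which shares 912 bases with Mest on the opposite strand, was even over the libraries at 10.2 to 12.0 FPKM.

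Peg3 (ENSMUSG00000002265, chr7:6703892-6730431, minus strand), a zinc finger protein, was at 15.0, 19.3 and 17.8 FPKM in sham and 20.9, 22.4 and 15.2 FPKM in VO. VO 3 was level with sham 1, and the log2 fold change was 0.15 (SE 0.17, 95% interval -0.26 to 0.56, adjusted p = 0.689). Left-out libraries moved it to 0.05 (sham 1), 0.04 (VO 2), 0.09 (VO 1), 0.23 (sham 2) and 0.32 (VO 3). Plagl1 (ENSMUSG00000019817, chr10:13060504-13131694, plus strand), a zinc finger transcription factor that restrains growth and is known to act on other imprinted genes, was at 16.2, 22.3 and 26.4 FPKM in sham and 30.4, 25.5 and 17.4 FPKM in VO. It was the only tested gene of the 9 with a single VO library above every sham library. Its log2 fold change was 0.16 (SE 0.25, 95% interval -0.43 to 0.76, adjusted p = 0.761), and -0.03 without sham 1 and -0.01 without VO 1. Leaving out sham 3 or VO 3 gave 0.32 or 0.39.

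Cdkn1c (ENSMUSG00000037664, chr7:143458339-143461050, minus strand), the cyclin-dependent kinase inhibitor p57, was the most even of the 10 genes. It was at 11.2, 11.2 and 13.04 FPKM in sham and 12.5, 13.5 and 13.2 FPKM in VO, so its highest library was 1.21 times its lowest. The log2 fold change was 0.15 (SE 0.11), and the 95% interval of -0.10 to 0.40 was the narrowest of the 9 (adjusted p = 0.535). Dlk1 (ENSMUSG00000040856, chr12:109452823-109463336, plus strand), a ligand-like protein of the Notch family made in fetal tissues and in preadipocytes, was close to the floor of detection, with 3, 3 and 5 fragments in the sham and 1, 9 and 21 fragments in the VO libraries. The 21 fragments were in VO 3, the library with adipocyte markers, and at 0.226 FPKM that value was still under every value of the other 9 genes.

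**Figure D3:**
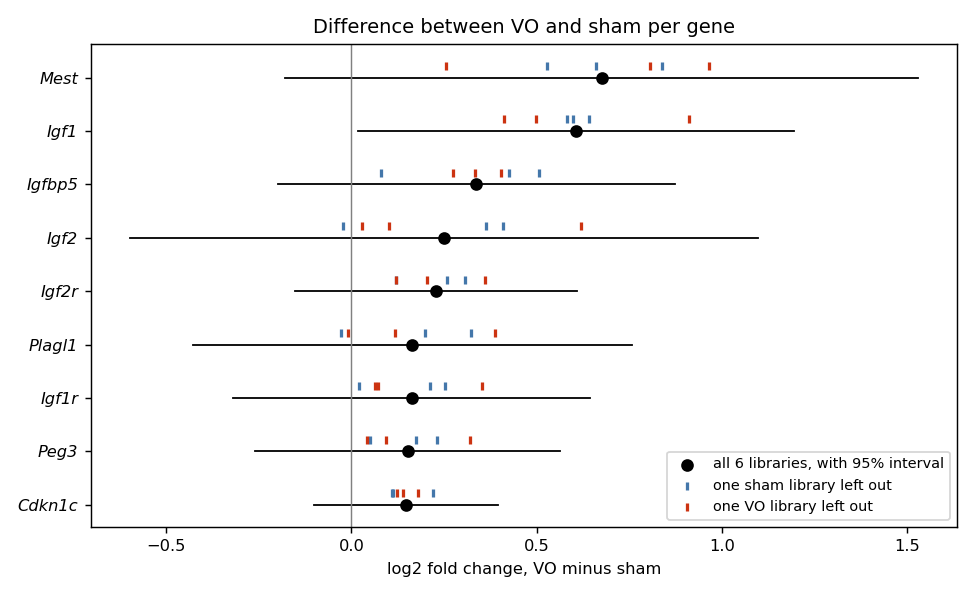
Log2 fold change (VO minus sham, horizontal axis) of the 9 tested genes with its 95% interval over all 6 libraries (black), and the same value with 1 sham (blue) or 1 VO (red) library left out. All 9 points lay above 0, from 0.15 to 0.68, the interval of Igf1 alone began above 0 (at 0.02), and leaving out 1 library put Igf2 and Plagl1 below 0.

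The order of the libraries was alike for Igf2, Igf1r, Igf2r, Peg3 and Plagl1, a set chosen after the values were seen. For each of the 5, sham 1 was lowest and VO 3 second lowest. Over the 6 libraries and on the log2 scale, the 10 pairs among them had Pearson's r of 0.848 to 0.981 and Spearman's rho of 0.714 to 1, as a description, since the points share libraries and the 90 pairs computed were not all shown. With the group means removed, r was 0.837 to 0.982, so the likeness was between libraries within a group and not only between VO and sham. Without the 2 libraries farthest from the median, which were sham 1 and VO 3 for most pairs and sham 1 and VO 1 where Igf2r came first, r ranged from 0.205 for Peg3 with Plagl1 to 0.993 for Igf2r with Peg3. The closest pair of all 10 was Igf2 with its signalling receptor Igf1r, where 0.119% of the tested genes had a higher r with Igf2 than Igf1r had. Between 1.11% and 3.19% of all tested genes had an r over 0.9 with a given gene of the 5, so the order is not particular to them.

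Gene length moved with this order in part, in sham 1 and VO 1 but not in VO 3, where the difference between long and short genes was 0.0013 on the log2 scale. All of the 5 but Igf2, at 5723 bases, are longer than 6442.5 bases, and sham 1 was low and VO 1 high for long genes at large. After the trend with expression level and length was removed in each library, r among the 5 was 0.726 to 0.949. The 5 were chosen for their like order in these same libraries, so a high r was likely beforehand. The part of gene length in that order was not tested. Igf1 is long too, at 9904 bases. Its r with Igf2 was 0.006, with VO 3 near the top of its order. Mest went with the 5 in part, with r of 0.746 with Igf2 and 0.906 with Igf2r, while Igfbp5 and Cdkn1c had r of 0.462 and 0.235 with Igf2.

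**Figure D4:**
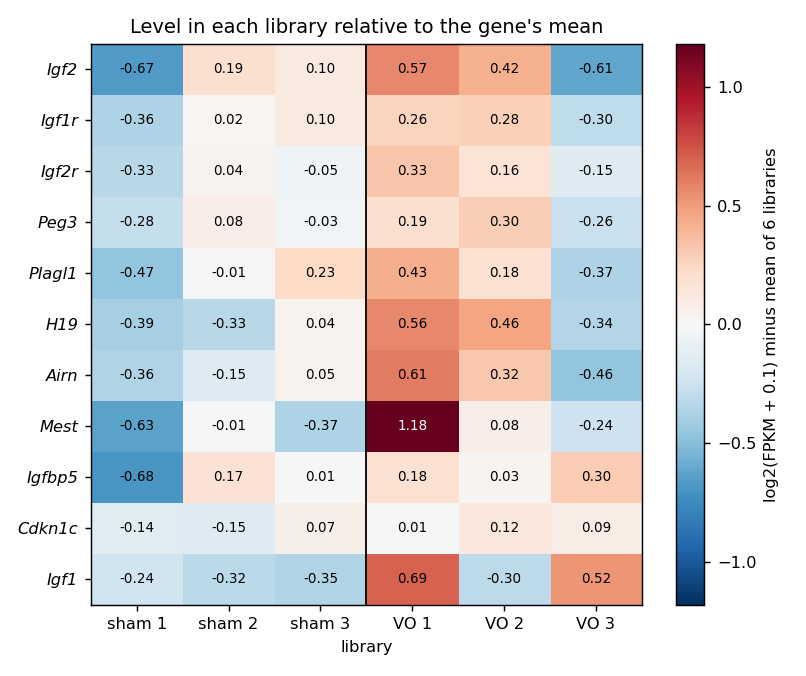
Log2(FPKM + 0.1) of each gene in each library minus its mean over the 6 libraries (colour and number), with H19 and Airn added. Igf2, Igf1r, Igf2r, Peg3 and Plagl1 were lowest in sham 1 and next lowest in VO 3, at -0.67 and -0.61 for Igf2, whereas Igf1 was at 0.69 in VO 1 and 0.52 in VO 3.

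The genes most like each of the 9, as the 3 with the highest r over the 6 libraries, were mostly genes outside the axis. For Igf1 they were Dram1, a lysosomal membrane protein of autophagy (r = 0.998), Plbd1, a phospholipase B-like protein (r = 0.992), and Iqgap2, a scaffold protein (r = 0.989). Dram1 was at 2.83, 2.50 and 2.36 FPKM in sham and 5.97, 2.56 and 5.37 FPKM in VO, and it lies on the chromosome of Igf1 (chr10:88322804-88379080, minus strand), 385761 bases beyond its end. For Igf2 they were the kinase Hipk2 (r = 0.998), Hus1 and Iffo1, and Iffo1 was also among those of Igf1r, with Zfp697 and Zfp362. For Igf2r they were Chpf2, Med13 and Macf1, and for Plagl1 they were Fkbp10, Ttc3 and Pxn. Peg3 had Dusp11, Hus1 and Gm44199, Igfbp5 had Ctnnd1 and Med1, Mest had Lrrk1, Kif26a and Pag1, and Cdkn1c had Oas1c, Gm5805 and Gm2225, each with r from 0.969 to 0.995. With 6 points and 12627 genes, such values are a ranking and not a test, and no shared control is read from them.

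The imprinted neighbours of the 10 genes were read next. H19, the growth-restraining RNA that shares enhancers with Igf2, was at 135, 141 and 183 FPKM in sham and 262, 244 and 140 FPKM in VO, so VO 1 and VO 2 were above every sham library and VO 3 was among them. Its log2 fold change was 0.46 (SE 0.26, adjusted p = 0.467). The r of H19 with Igf2 was 0.829, and 4.47% of the tested genes had a higher r with Igf2. H19 is known to come from the maternal and Igf2 from the paternal copy. In the domain of Dlk1, the maternal RNA Meg3 was at 1.31, 1.75 and 1.51 FPKM in sham and 2.11, 2.09 and 2.16 FPKM in VO. These groups did not overlap, and the log2 fold change was 0.46 (SE 0.17, adjusted p = 0.410). Near Cdkn1c, the potassium channel gene Kcnq1 was at 16.5, 15.5 and 16.4 FPKM in sham and 9.40, 13.4 and 12.3 FPKM in VO, without overlap and lower in VO (log2 fold change -0.48, SE 0.15, adjusted p = 0.404). Kcnq1 is expressed in cardiomyocytes, whose markers were lower in the same libraries, and that part was not tested. Next to Peg3, Zim1 had a log2 fold change of 0.14, and Usp29 was at 0.185 to 0.337 FPKM, under the filter.

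Over a list of 30 genes classed as imprinted and expressed from the paternal copy, 16 were tested, 9 with log2 fold changes above 0 and 7 below, with a median of 0.09. At an unadjusted p under 0.05, Nap1l5, a nucleosome assembly protein, was higher in VO (5.10 ± 0.0676 to 6.80 ± 1.01 FPKM, log2 fold change 0.40) and the amino acid transporter Slc38a4 was lower (12.4 ± 2.27 to 8.83 ± 1.39 FPKM, log2 fold change -0.48). Over 27 classed as expressed from the maternal copy, 19 were tested, 13 above 0 and 6 below, with a median of 0.09. The 2 under that threshold were Meg3, higher in VO, and Kcnq1, lower in VO. At that threshold 3.89% of all tested genes were higher and 8.08% lower. No allele was read, so which copies of these genes were expressed in these atria is not known. Groups did not overlap for 1 of the 16 and 3 of the 19, beside 21.2% of all tested genes. None of either list had an adjusted p under 0.05. Of the others named by level or in any case, Snrpn had a log2 fold change of -0.34, Cd81 of -0.06, Gnas of 0.04 and Grb10, an adaptor that damps receptor signalling, of 0.23. The lists include Igf2, Igf2r, Peg3, Plagl1, Cdkn1c, Mest and Dlk1 themselves.

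Within the IGF axis, 5 of 8 ligand and receptor genes were tested, 4 with log2 fold changes above 0 and 1 below, with a median of 0.23, which was 0.02 without sham 1, 0.07 without VO 1, 0.10 without VO 2 and 0.36 without VO 3. The insulin receptor Insr was the 1 below 0, at 15.8 ± 1.89 and 15.2 ± 0.563 FPKM with a log2 fold change of -0.05. Of 8 binding proteins 5 were tested, 2 above 0 and 3 below, with a median of -0.004 and none at an unadjusted p under 0.05. Igfbp7 was the highest of them and even between groups, at 347 ± 43.2 and 349 ± 44.5 FPKM. Igfbp4 was even as well, at 97.7 ± 6.11 and 97.5 ± 8.59 FPKM. Igfbp3, which carries most of the circulating ligand, was at 187, 192 and 213 FPKM in sham and 142, 202 and 170 FPKM in VO (log2 fold change -0.22, SE 0.16, adjusted p = 0.534). It was lowest in VO 1 and VO 3, the libraries highest in Igf1, and its r with Igf1 was -0.925. Igfbp6 had the lowest log2 fold change of the list, at -0.60 (adjusted p = 0.435), and is named after its value was seen.

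Of 7 proteases that cut binding proteins and inhibitors of those proteases, 5 were tested, 2 above 0 and 3 below, with a median of -0.11. The gelatinase Mmp2 was at 72.4, 68.9 and 74.1 FPKM in sham and 109, 82.0 and 82.9 FPKM in VO, without overlap (log2 fold change 0.33, SE 0.14, adjusted p = 0.414). Htra1, a serine protease, lay the other way, at 69.3 ± 5.65 and 59.6 ± 2.83 FPKM, also without overlap (log2 fold change -0.22, adjusted p = 0.438). The third of the 5 without overlap, where 21.2% of all tested genes had none, was Stc2, an inhibitor of the pappalysins, with a log2 fold change of -0.63 (adjusted p = 0.424). Pappa, the pappalysin that cuts Igfbp4 and Igfbp5, was under the filter, at 0.286, 0.274 and 0.290 FPKM in sham and 0.535, 0.478 and 0.618 FPKM in VO, or 49 to 52 and 86 to 112 fragments. Its groups did not overlap, VO 2 was high along with VO 1 and VO 3, and with the filter at 0.1 FPKM its log2 fold change was 0.74 (SE 0.28, adjusted p = 0.506). Stc2 and Pappa were chosen after their values were seen.

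Of 32 genes of signalling below the receptors, 31 were tested, 14 with log2 fold changes above 0 and 17 below, with a median of -0.04. None had an adjusted p under 0.05. At an unadjusted p under 0.05, 2 of the 31 were higher in VO and 3 lower, beside 3.89% and 8.08% of all tested genes. Those higher were Foxo1, a transcription factor that insulin and IGF signals keep out of the nucleus, from 7.40 ± 0.517 to 9.44 ± 0.774 FPKM (log2 fold change 0.35, adjusted p = 0.404), and Pik3cb, a catalytic subunit of PI3 kinase, from 2.54 ± 0.202 to 3.24 ± 0.161 FPKM (0.34, adjusted p = 0.410). Those lower were Irs2, an adaptor that the receptors phosphorylate, from 6.08 ± 1.05 to 4.14 ± 0.540 FPKM (-0.54, adjusted p = 0.404), the phosphatase Ptpn11, from 48.3 ± 3.11 to 36.7 ± 5.13 FPKM (-0.40, adjusted p = 0.404), and the adaptor Sh2b1, from 21.2 ± 1.41 to 16.2 ± 2.64 FPKM (-0.40, adjusted p = 0.406). The groups did not overlap for 8 of the 31, beside 21.2% of all tested genes. The 8 include these 5, which were picked by their p in the same comparison, so their lack of overlap is no separate reading. The other adaptor Irs1 had a log2 fold change of -0.12 and the kinase Akt1 of -0.26. Of 3 genes whose proteins bind the mRNA of Igf2, only Igf2bp2 was tested, with a log2 fold change of 0.13.

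**Figure D5:**
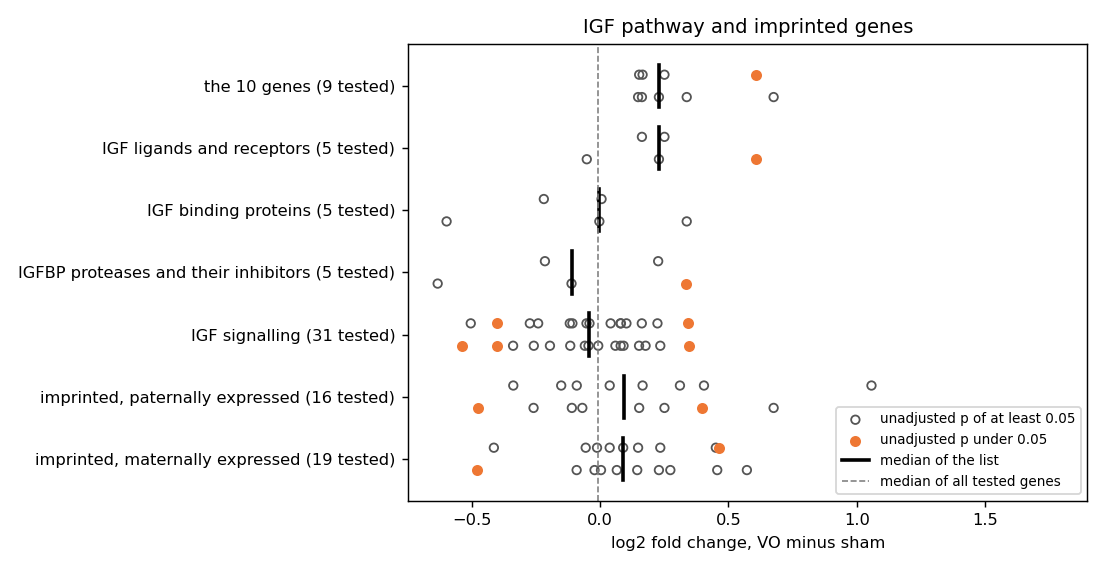
Log2 fold change (VO minus sham, horizontal axis) of each tested gene in the lists, as filled points at an unadjusted p under 0.05 and open points otherwise, with the median of each list (bar) and of all tested genes (dashed, -0.01). The 9 tested genes of the 10 lay to the right of the dashed line, while the signalling list, with a median of -0.04, lay on both sides.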

How the data were processed

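RNA of the RA was sequenced in 3 sham and 3 VO libraries made with the NEBNext Ultra RNA kit. According to the study's methods and the submitters' processing notes, the authors aligned reads with HISAT2 (2.0.5) to GRCm38 (mm10), counted fragments per gene with featureCounts (1.5.0-p3), and deposited FPKM, which carried a scaling between libraries already (median-of-ratios factor 1.00 in each). FPKM times gene length gave whole fragments, within 0.01, for 100% of values, 15963082 to 17237903 per library. An incomplete last line was left out, and no column belonged to another sample. Coordinates were those of GRCm38 for 98.4% of 54039 shared genes.

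Values were transformed as log2(FPKM + 0.1), filtered to a mean of at least 1 FPKM and fitted with limma 3.58.1 (R 4.3.3; lmFit, eBayes with trend, two-sided, no covariates) with Benjamini-Hochberg adjustment over all 12627 genes at 0.05. The deposited unit is FPKM, so a fit on the log scale was the main test, with voom on recovered fragments as an alternative. The authors' DESeq2 test was not repeated. With it the study reported far more genes at an adjusted p under 0.05, higher and lower in VO, than were found here. An exact permutation of 3 against 3 libraries cannot give a p under 0.1, so none was used. Replicate numbers were not taken as pairs: deviations from group means of same-numbered libraries correlated at -0.108, 0.0112 and -0.0292. The 10 genes and all lists were chosen with earlier results of these data known. Named were the 10 genes, 12 fixed neighbours and pathway genes, from each list the 4 genes per direction with the smallest p among those with an unadjusted p under 0.05 and the 2 highest in level, and the 3 genes most like each. Of the genes so named, 2 are not reported here. Alternatives were other pseudocounts, filters, scalings, variance models, sex, a replicate block, each library left out and, added after seeing the data, removal of trends with level and length and leaving out VO 1 and VO 3. The fit was tested on simulated data, with planted changes larger than those of the genes tested here and the same spread in every library. That test does not measure the power for changes of the size seen here. Promoters were RefSeq windows; figures used matplotlib 3.10.9 in Python 3.11.15.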

Additional observations from a re-analysis of the deposited data

How the results depend on the processing

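Over 22 alternatives, none of the 9 tested genes reached an adjusted p under 0.05, and 191 of 197 log2 fold changes kept their direction. Igf2 was at -0.055 with array weights and from -0.023 (without sham 1) to 0.619 with 1 library left out. Plagl1 was at -0.074 with array weights and from -0.028 (without sham 1) to 0.389 with 1 library left out, and was also below 0 without VO 1. Igf1 was at -0.00092 without VO 1 and VO 3. Over all genes, the count with an adjusted p under 0.05 was 2 with a pseudocount of 1, 3 with a filter at 0.1 FPKM or no variance trend, and 0 with quantile normalization, robust variance, the replicate block, sex as a covariate, the level and length trend removed, without VO 1 and VO 3, or with any library left out, where 521 to 1998 genes had an unadjusted p under 0.05 in limma.

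Of the 9 genes, those with an unadjusted p under 0.05 numbered 2 with TPM (Igf1 and Cdkn1c), 0 without variance trend, with sex as a covariate, with the level and length trend removed or without VO 1 and VO 3, and 0 to 1 with 1 library left out (Igf1 without VO 2, Mest without VO 3). With the replicate block it was 1 (Igf1, adjusted p = 0.601), and the block changed no other call of these genes. Groups without overlap numbered 1 to 5 of the 9 with 1 library left out (5 without VO 3), and 6 without VO 1 and VO 3. Smaller groups overlap less by construction. The share over all tested genes was counted only with all 6 libraries (21.2%). Whether the counts with fewer libraries exceed that of all genes was therefore not tested, and nothing is read from them. TPM moved the median of all genes to 0.13.

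List medians moved with TPM to 0.136 (binding proteins), 0.096 (signalling), 0.232 (paternal) and 0.227 (maternal). Quantile normalization gave 0.189 for binding proteins and 0.025 for signalling, and trend removal 0.152 for binding proteins. The proteases were at 0.057 with a filter at 0.1 FPKM and 0.0699 with none. The paternal list was at -0.081 with a filter at 5 FPKM and -0.0397 with array weights, and signalling at 0.022 and Igf2bp2 at -0.043 without VO 1 and VO 3. With 1 library left out the paternal list ran from -0.0228 to 0.215 and signalling from -0.084 to 0.0327. In a fit that left a group with 1 library, that library was assumed to vary like the others. Depth limited Dlk1, with 1 to 21 fragments, and little else among the 10 genes.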
